A study of Mus musculus with 13 samples.

Results

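The 4 libraries described here measured RNA of mouse cardiomyocytes, the contracting muscle cells of the heart, on both sides of the weeks after birth. They are 4 of the 13 libraries of the series. The neonatal group held a library from postnatal days 1 to 2 (PN1-2) and one from day 1 (PN1). The later group held one from day 30 (PN30) and one from day 67 (PN67, labelled adult), pooled because neither age has a replicate. All mice of the series were wild type and of the strain FvB, with atria removed, and no agent was given to any group. Neonatal cardiomyocytes came from preplating with a Cellutron kit, while those of PN30 and PN67 came from hearts perfused by the Langendorff method. Every difference below is therefore one of stage and of isolation method at once, and the 2 cannot be told apart in these cells. Set beside them were 4 cardiac fibroblast libraries (PN1-3, PN1-2, PN28 and PN60), all isolated by enzymatic digestion and preplating, and 5 whole ventricles (E17, that is embryonic day 17, then PN1, PN10, PN28 and PN90). Ventricle libraries were made after ribosomal RNA depletion and cell libraries with a TruSeq protocol.

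Around birth the heart of a mouse moves from growth by cell division to growth by cell enlargement, and from glucose and lactate toward fatty acids as fuel. Its muscle cells exchange fetal for adult versions of contractile proteins, build out the membrane system that couples excitation to calcium release, and fill with mitochondria. They also withdraw from the cell cycle and lose growth programmes shared with the embryo, including a set of imprinted genes, of which only the copy from 1 parent is active.

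RNA levels are in FPKM, that is fragments per kilobase and unit of library size, summed over the transcripts of a gene and scaled between libraries. 4 values in a row are always given in the order PN1-2, PN1, PN30 and PN67. Changes are later minus neonatal on the scale log2(FPKM + 1), with the standard error (SE) of limma, a linear model with a spread moderated over all genes. A gene was called changed at a Benjamini-Hochberg adjusted p below 0.05 in a two-sided test. Of 12072 genes tested, 8088 (67%) changed in cardiomyocytes, 4494 up (37.2%) and 3594 down (29.8%). Counts of members below stand against these shares. Genes were named by a rule of size within each list, and others, such as Ryr2, Ndufs1 or Fos, were chosen after their values were seen because of their known roles. The median log2 change over all genes tested was 0.10. With FPKM as deposited this median was -0.19, and 3363 genes rose and 4865 fell. When genes encoded in mitochondria were set aside and the remaining sums made equal, it was -0.28, and 3006 rose and 5228 fell. By a log2 change of 1 or more, 2620 genes rose (21.7%) and 1821 fell (15.1%).

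Across the genes tested, the levels of the neonatal libraries had a Spearman's rho of 0.993 with each other, PN30 and PN67 one of 0.984, and the pairs across the stages 0.744 and 0.752. These correlations are across genes, which are not replicates. Between the neonatal libraries 34 of 12072 genes (0.282%) differed by 1 or more on the log2(FPKM + 1) scale, between PN30 and PN67 188 (1.56%), and between a neonatal and a later library from 4287 to 4786 (35.5% to 39.6%). Values of the 2 stages did not overlap for 10805 genes (89.5%). The labels do not say that libraries came from separate animals or cultures, so the spread behind each p-value may be technical alone. With 2 libraries against 2, an exact permutation test cannot go below p = 0.333, and the calls rest on limma's pooled spread.

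The cell type label was checked against its markers. Each of the 15 cardiomyocyte markers measured had a value above 0 in all 4 libraries, which by itself does not tell cell types apart. Tnni1 stood below 1 FPKM in both later ones and Art1 in both neonatal ones. Summed, the 15 markers held 3.58%, 3.28%, 9.42% and 9.13% of the FPKM of the 4 libraries. In the fibroblast libraries (PN1-3, PN1-2, PN28 and PN60) they held 0.412%, 0.366%, 0.00656% and 0.00875%. For the 9 fibroblast markers tested the neonatal level was in the median 7.54% of that in neonatal fibroblasts (range 6.68% to 20.7%), and the later level 7.43% of that in later ones (range 4.11% to 21.9%). Of these 9 markers 4 rose and 4 fell. The other 3 of the list, Col3a1, Dcn and Gsn, were left out of the tests. Their values are given at the end, where Dcn and Gsn stood higher in later libraries. Of 15 endothelial markers 12 fell and 2 rose, and with FPKM as deposited 0 rose. Their summed level was 3925 and 4418 FPKM in neonatal and 1695 and 2646 FPKM in later libraries. Most of each sum was Fabp4, 1 of the 15, whose values and call are given below. The junction protein Cldn5 measured 367, 459, 23.5 and 25.9 FPKM and the cadherin Cdh5 255, 308, 75.7 and 70.3 FPKM, and for both every neonatal value lay above every later one. All 3 erythroid markers tested fell, and the alpha globin Hba-a2 measured 9639, 12198, 639 and 379 FPKM. The 7 erythroid genes with a value summed to 4.03% and 5.33% of neonatal FPKM and to 0.211% and 0.135% of later FPKM. Among markers of macrophages and other leukocytes (16) there were 9 rises and 1 fall, with summed levels of 105 and 134 FPKM in neonatal and 382 and 396 FPKM in later libraries. The complement gene C1qa measured 9.46, 10.9, 70.1 and 67.7 FPKM. Adipocyte markers were below the limit for testing for 6 of 6 genes. In RNA of many cells, fewer cells of a type and less RNA per cell cannot be told apart, and the part that these other cells had in the gene changes below was not tested.

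Genes left out for a failed or skipped estimate were not ranked, and every share of FPKM in this report is of the sum without them. One of them, Eef1a1, stood at 3770 and 3935 FPKM in the neonatal libraries, above Tnnt2 there. Among the genes kept, the 10 of highest FPKM held 15.3%, 15.2%, 16% and 16.2% of that sum in each library. Myl2, Tnnt2, the mitochondrial gene mt-Nd3 and the predicted gene Gm10222 were among the 10 in all 4 libraries, and the globins Hba-a2 and Hbb-bt, the fatty acid binding protein Fabp4, the growth-related Tpt1 and the mitochondrial ribosomal RNA mt-Rnr2 in both neonatal libraries and neither later one. In their place both later libraries held Myl3, Tnni3, the ATP synthase subunit Atp5b, the muscle fatty acid binding protein Fabp3, Cox7a1 and the nucleotide exchanger Slc25a4. Fabp4 measured 2298, 2533, 955 and 1750.05 FPKM and Fabp3 1595, 1676, 4359.8 and 5466 FPKM, and Atp5b 1567, 1433, 4518 and 4110.5 FPKM. Fabp3 and Atp5b rose by 1.58 ± 0.20 and 1.52 ± 0.11 on the log2 scale. Fabp4 was called down at -0.90 ± 0.24, but not without the neonatal PN1 library (-0.83) nor, at the same change, without the filter on low values.

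The gene chosen as the fetal marker, Tnni1, encodes the slow skeletal troponin I that the heart uses before birth, the inhibitory subunit that holds the thin filament off between beats. It measured 743, 667, 0.639 and 0.148 FPKM (mm9 chr1:137679642-137707566), high in both neonatal libraries and below 1 in both later ones. The adult cardiac form Tnni3 (chr7:4469907-4475831) measured 1138, 929.9, 5908 and 5648 FPKM. Tnni1 fell by 9.01 ± 0.18 (SE) on the log2 scale, the largest fall of all genes tested (adjusted p = 4.65e-07), and Tnni3 rose by 2.49 ± 0.17 (adjusted p = 1.71e-05). In whole ventricles Tnni1 measured 707, 786, 41.5, 0.423 and 0.285 FPKM from E17 to PN90 and Tnni3 2045, 4398, 4936, 9601 and 10768 FPKM. The ventricle at PN10 still held Tnni1, and at PN28 and PN90 it had lost nearly all.

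**Figure D1:**
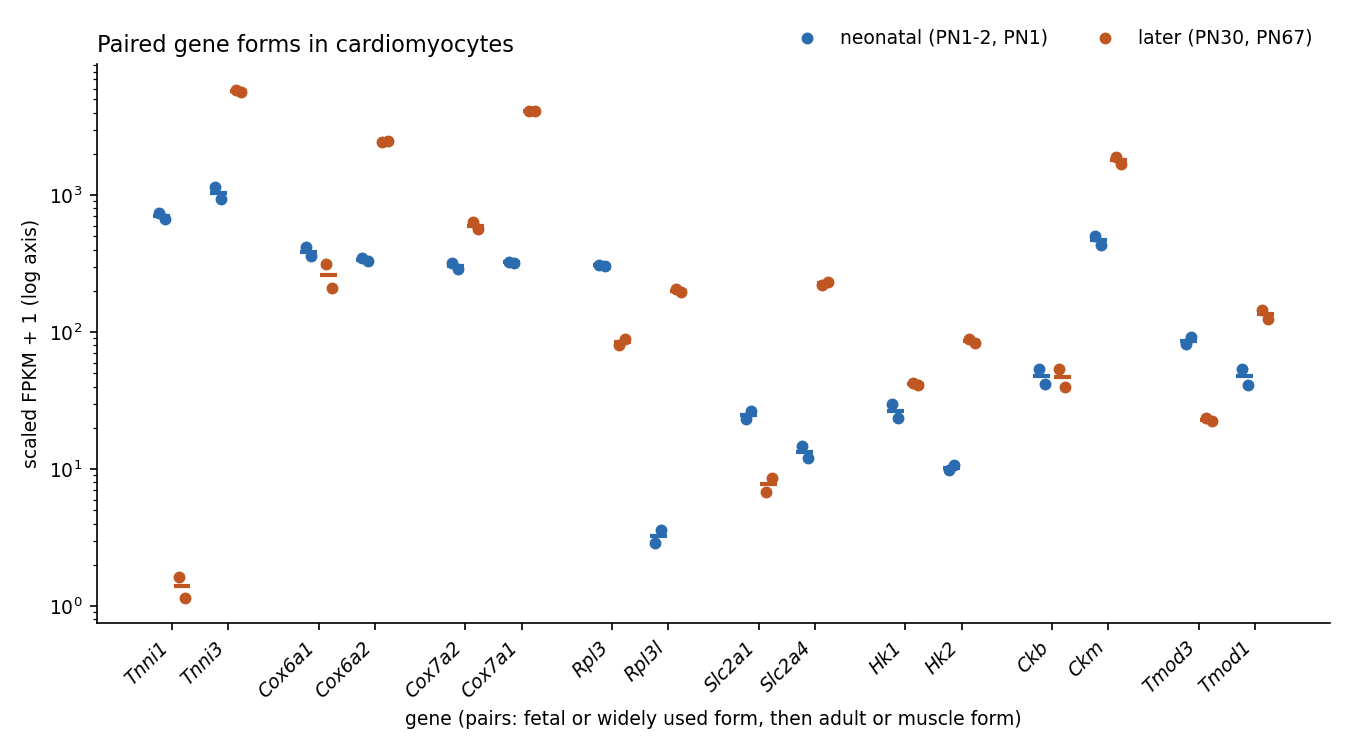
Scaled FPKM of paired fetal or widely used (left gene) and adult or muscle (right gene) forms in the 4 cardiomyocyte libraries, on a log axis with 1 added. Each point is a library and bars mark the mean of a stage (n = 2). Tnni1 drops from 743 and 667 to below 1 while Tnni3, Cox6a2, Cox7a1, Rpl3l, Slc2a4, Hk2, Ckm and Tmod1 stand higher in both later libraries than in both neonatal ones.

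Both other lead markers were rises. Ckmt2 is the sarcomeric creatine kinase of mitochondria, which loads phosphate onto creatine where ATP is made. Its level was 43.5, 57.4, 2614 and 2216 FPKM (chr13:91992992-92016490), a log2 rise of 5.56 ± 0.21 (adjusted p = 2.58e-06). Art1 is an ADP-ribosyltransferase of the muscle cell surface, and its level was 0.973, 0.835, 173 and 175 FPKM (chr7:109250257-109259662). Its log2 rise of 6.52 ± 0.12 was the largest of all genes tested (adjusted p = 4.65e-07). In ventricles Art1 measured 0.594, 1.77, 29.7, 85.6 and 91.1 FPKM and Ckmt2 24.4, 130.3, 800.01, 1968 and 1933 FPKM from E17 to PN90, so that both stood highest at PN28 and PN90 there as well. Neither gene's neonatal and later values overlapped.

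The contractile lattice rose unevenly. In the thick filament and M band, 13 of 17 genes rose and 4 fell (median log2 change 1.98). The ventricular regulatory light chain Myl2 measured 5371, 5088, 14900.00 and 15698 FPKM and the essential light chain Myl3 2042, 2170.2, 9586 and 8240.2 FPKM. Cardiac myosin binding protein C, Mybpc3, measured 274, 262, 1293 and 1308 FPKM, and the M band protein Myom2 52.8, 53, 385 and 427 FPKM. Titin (Ttn), the spring that runs from Z disc to M band, rose by 2.14 ± 0.16 on the log2 scale and the light chain kinase of cardiac muscle, Mylk3, by 2.68 ± 0.15 (adjusted p at most 1.04e-04). Mybpc2, the myosin binding protein C of fast skeletal muscle, measured 0.401, 0.627, 13.8 and 12.8 FPKM, near 0 in newborn and clearly present in later cells. Myh7, the beta myosin heavy chain, measured 226, 176, 573 and 563 FPKM and rose by 1.50 ± 0.17 (adjusted p = 1.35e-04). It shares long stretches with its neighbour Myh6, which is not analysed here, so the values and the call of Myh7 are uncertain.

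The falls in that list were the non-muscle light chain Myl6, at 456, 502, 211 and 164 FPKM, and 3 genes of atrial muscle, Myl7, Myl4 and Mybphl. Myl7, the atrial regulatory light chain, measured 1338, 404, 11.8 and 29.2 FPKM, and Myl4, the atrial essential light chain, 860.3, 228, 13.2 and 26.4 FPKM. For both, the PN1-2 library stood over 3 times above PN1, and both neonatal values stood far above the later ones. The log2 changes were -5.23 ± 0.66 for Myl7, -4.49 ± 0.58 for Myl4 and -2.98 ± 0.49 for Mybphl (adjusted p at most 0.00102). Without the PN1-2 library they were -4.37, -3.54 and -2.14, and without PN1 -6.09, -5.45 and -3.82, all still called. Myl7 also changed by -5.85 without PN67 and by -4.61 without PN30. Nppa, the atrial natriuretic peptide that the fetal ventricle also makes, measured 974, 226, 93.4 and 125 FPKM and was called down at a log2 change of -2.11 ± 0.64 (adjusted p = 0.0204). That call was lost without PN1-2 (log2 change -1.06), without PN67 (-2.32) and without PN30 (-1.90), and without PN1 the change was -3.16. Of 13 tested genes of the atrial and natriuretic list 7 fell and 4 rose. The rises were Corin, Nppb, Clu and Kcna5, at log2 changes of 2.71, 2.04, 1.72 and 0.50. How far remaining atrial tissue had a part in these levels was not tested.

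In the thin filament, 8 of 16 genes rose and 5 fell. Cardiac troponin T, Tnnt2, measured 2872, 2432, 8479.7 and 8281 FPKM, and cardiac troponin C, Tnnc1, 22.5, 18.8, 77.9 and 84.5 FPKM. The leiomodins, which nucleate actin and set thin filament length, rose for both members tested, Lmod2 by 3.23 ± 0.18 and Lmod3 by 2.18 ± 0.14 on the log2 scale. Tropomyosins shared with non-muscle cells fell, Tpm3 from 116 and 134 to 36.4 and 30.6 FPKM and Tpm4 from 200.4 and 259 to 65.8 and 45.2 FPKM. The filament cap of muscle, Tmod1, rose by 1.51 ± 0.16 and the widely expressed cap Tmod3 fell by 1.91 ± 0.12 on the log2 scale. Slow skeletal troponin T, Tnnt1, measured 32.5, 18.6, 21.7 and 13.7 FPKM and fast skeletal troponin I, Tnni2, 2.9, 1.38, 5.4 and 1.89 FPKM, with no call for either. Tnnt1 was called down without the neonatal PN1 library (log2 change -0.88) with FPKM as deposited (-0.84) and with equal sums (-0.94), and Tnni2 was called up without PN67 (1.07).

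Z discs anchor the thin filaments, and costameres tie them to the cell membrane. Of 36 genes of these structures 27 rose and 6 fell (median log2 change 2.25). Telethonin (Tcap) measured 118, 100.1, 1011 and 1986 FPKM and the stretch sensor Csrp3 394, 290.2, 1871 and 1987 FPKM. Ankrd23, an ankyrin repeat protein bound to titin, measured 7.83, 12.2, 303 and 328 FPKM, higher in each later library than in either neonatal one. The giant scaffold Cmya5 rose by 4.11 ± 0.16, Xirp2, which binds actin, by 4.17 ± 0.17 and the ubiquitin ligase Trim54 by 4.64 ± 0.29 on the log2 scale (adjusted p at most 3.07e-05). The sarcoglycans, membrane partners of dystrophin, rose for the 4 members of that list, from a log2 rise of 2.23 ± 0.17 for Sgcd to one of 2.82 ± 0.15 for Sgca, and dystrophin itself (Dmd) by 1.90 ± 0.20. Sgce, epsilon-sarcoglycan, which is counted among the imprinted genes, was called down at a log2 change of -0.82 ± 0.18. The muscle alpha-actinin Actn2 measured 280.2, 236, 783 and 764 FPKM and its non-muscle relatives Actn1 53.3, 61.6, 12.9 and 12.2 FPKM and Actn4 138, 149, 56.6 and 49 FPKM. Among the other falls were Flna, Pdlim1 and Pdlim7, which many cell types express, at log2 changes of -1.41 ± 0.20, -1.72 ± 0.23 and -1.08 ± 0.19.

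10 of 22 genes of the intercalated disc, the junction between muscle cells, rose and 5 fell, and with equal sums 8 rose and 7 fell. Desmoplakin (Dsp), which links desmosomes to desmin, measured 39.9, 35.2, 176 and 189 FPKM and the desmosomal cadherin Dsc2 3.48, 2.9, 19.6 and 13.7 FPKM. The main ventricular connexin Gja1 measured 246, 227, 268 and 142 FPKM and was not called, with PN67 below and PN30 above both neonatal values. Connexins of atrium, conduction system and early heart were lower, Gja5 at 16.5, 7.9, 1.96 and 1.55 FPKM and Gjc1 at 32.5, 35.1, 16.9 and 12.6 FPKM. Beta-catenin (Ctnnb1), which serves adherens junctions and Wnt signalling, fell by 0.91 ± 0.16 on the log2 scale while N-cadherin (Cdh2) rose by 1.23 ± 0.17 (adjusted p at most 0.0015).

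Release and re-uptake of calcium drive each beat. Of 31 genes of these steps 15 rose and 6 fell, with a median log2 change of 0.58. The release channel Ryr2 measured 33, 25, 156 and 139 FPKM. Phospholamban (Pln), the brake on the calcium pump, measured 313, 303, 2957 and 3044 FPKM, and Hrc, a calcium binding protein of the reticulum lumen, 21.7, 21.2, 377 and 369.7 FPKM. Hrc rose by 4.06 ± 0.12 and Pln by 3.28 ± 0.11 on the log2 scale. Junctophilin 2 (Jph2), which holds the reticulum against the transverse tubules, rose by 2.53 ± 0.20, the trimeric cation channel Tmem38a by 2.79 ± 0.15 and S100a1, a calcium sensor that acts on the pump and Ryr2, by 2.81 ± 0.18. Sarcolipin (Sln), the atrial counterpart of phospholamban, fell from 215 and 72.3 to 5.75 and 13.9 FPKM, a log2 change of -3.65 ± 0.63 that was -2.87 without PN1-2 and -4.43 without PN1. Bin1, which shapes transverse tubules, fell by 2.46 ± 0.18, although its sum may be partial because Bin1 has many isoforms.

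Ion channels of the membrane rose for most members. Of 18 calcium, sodium and pacemaker channel genes 13 rose and 2 fell (median log2 change 1.47). The L-type calcium channel Cacna1c measured 13.4, 11.4, 48.2 and 55.9 FPKM and its T-type relative Cacna1h, typical of the fetal heart, 3.6, 2.25, 0.342 and 0.197 FPKM. Among 19 potassium channel genes 17 rose and 2 fell. Kcnd2, a pore of the transient outward current that shapes early repolarization in the mouse, measured 0.491, 0.32, 11.5 and 7.71 FPKM and its partner Kcnip2 12.8, 15.7, 159 and 145 FPKM. The inward rectifiers Kcnj12 and Kcnj2 rose by 2.39 ± 0.14 and 1.39 ± 0.16 on the log2 scale (adjusted p at most 1.84e-04). Kcne1, a subunit of the slow rectifier, went the other way at 39.1, 40.3, 6.43 and 1.23 FPKM, and its log2 change of -3.32 ± 0.47 was -2.46 without PN67 and -4.19 without PN30. In ventricles 9 of 17 potassium channel genes had a called rise over the stages and 1 a called fall, and without E17 3 rose, without PN28 5.

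**Figure D2:**
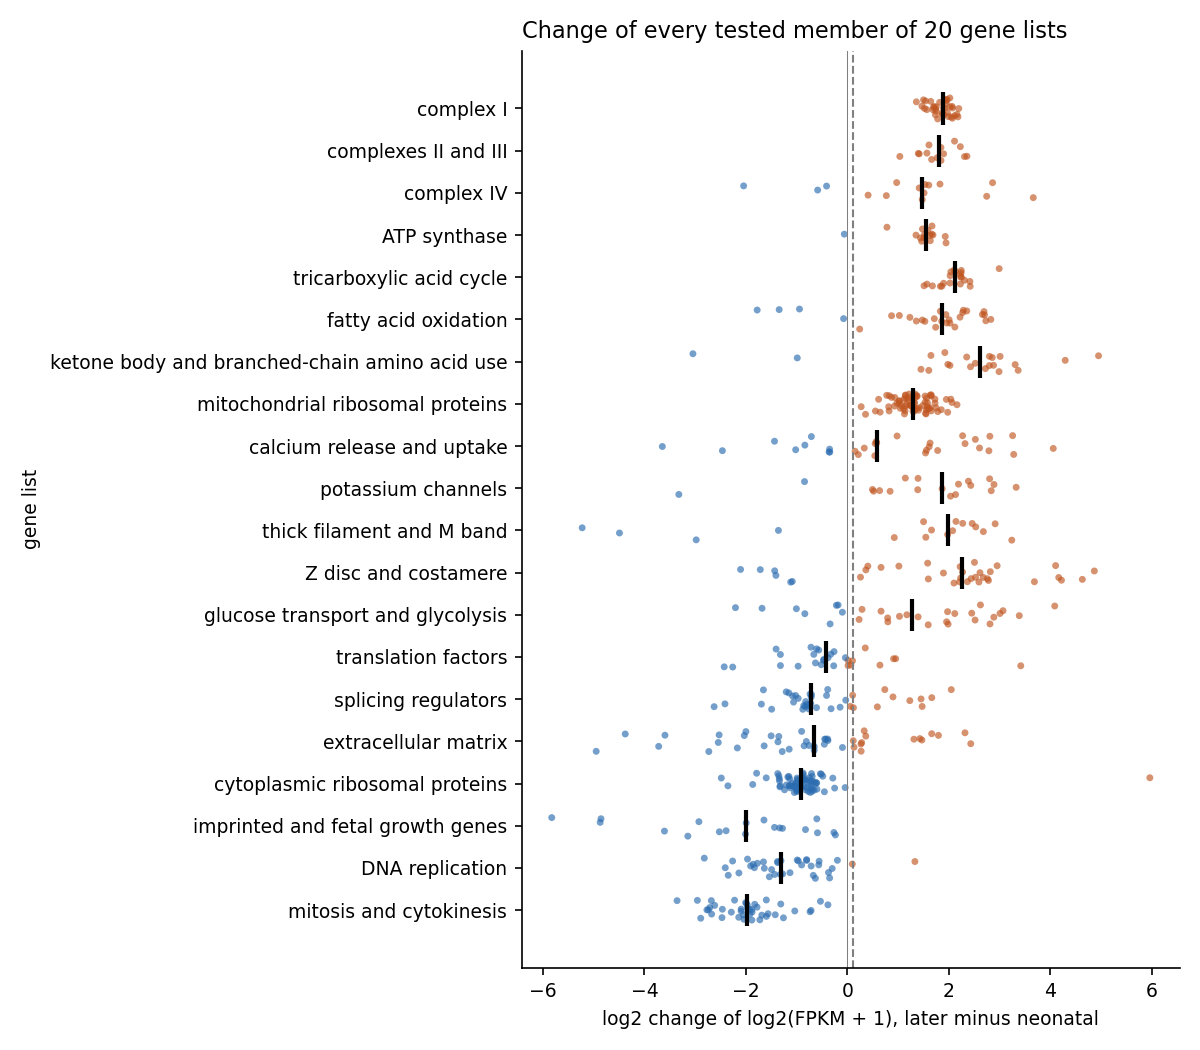
Log2 change (later minus neonatal, on log2(FPKM + 1)) of every tested gene of 20 lists in cardiomyocytes, 1 point per gene, with a bar at the list's median and a dashed line at the median of all genes tested (0.10). Complex I, the tricarboxylic acid cycle and the mitochondrial ribosome lie wholly above 0 and the mitosis list wholly below, and the cytoplasmic ribosome lies below except for Rpl3l at the far right.

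Oxidative phosphorylation rose as a block. All 37 tested nuclear genes of complex I, the entry point for electrons from NADH, rose, with a median log2 change of 1.90. So did 14 of 14 genes of complexes II and III with cytochrome c, 15 of 16 of ATP synthase and its inhibitor, and 11 of 15 of complex IV, where 2 fell. The lists' medians were 1.81, 1.56 and 1.48 on the log2 scale. In complex I, the catalytic core subunit Ndufs1 measured 109, 89.9, 460.3 and 432 FPKM and the flavoprotein Ndufv1 169, 157, 686 and 644 FPKM. The ATP synthase subunit Atp5a1 measured 825, 712, 3055 and 2863 FPKM. Within complex I the smallest log2 rise was that of Ndufc2 (1.36 ± 0.15). The exception in the ATP synthase list was Atpif1, the factor that blocks reverse rotation, at 268, 230.1, 248 and 229 FPKM and not called (log2 change -0.06 ± 0.12, but -0.42 and -0.53, both called, with FPKM as deposited and with equal sums). In ventricles 34 of 37 complex I genes and 11 of 16 ATP synthase genes had a called rise over the 5 stages. Without E17 these counts were 4 and 1, without PN28 23 and 3, and without PN90 25 and 4. In fibroblasts over the same step, 0 complex I genes rose and 32 fell.

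Complex IV showed the exchange of tissue forms. Its muscle subunits Cox6a2, Cox7a1 and Cox8b measured 346, 327, 2446 and 2469 FPKM, 325, 320.2, 4136 and 4088 FPKM and 369.8, 379, 2549 and 2497 FPKM. Their widely expressed counterparts Cox6a1, Cox7a2 and Cox8a measured 415, 358, 313 and 211 FPKM, 321, 286, 633 and 561 FPKM and 512, 434, 399 and 316 FPKM. The muscle forms rose by 2.86 ± 0.17, 3.67 ± 0.19 and 2.75 ± 0.15 on the log2 scale, whereas Cox7a2 rose by 0.97 ± 0.11, Cox6a1 had a log2 change of -0.58 ± 0.19 and Cox8a one of -0.41 ± 0.16. Cox6a1 was called down (adjusted p = 0.0261), but not without PN67 (-0.30), PN1-2 (-0.48) or the neonatal PN1 (-0.69), nor at the same change without the filter on low values. Cox8a was not called, except without PN30 (-0.58), without either later fibroblast library (-0.41), with FPKM as deposited (-0.77) and with equal sums (-0.88). At the neonatal stage Cox7a1 and Cox7a2 stood at similar FPKM, and at PN30 and PN67 Cox7a1 stood far above. Cox6b2, the testis form, was the other fall of the list, at 8.51, 10.3, 1.14 and 1.96 FPKM. Factors that assemble the complexes rose for 35 of 35 genes (median log2 change 1.44), among them Uqcc1 for complex III by 2.40 ± 0.24 and Ndufaf1 for complex I by 2.31 ± 0.18. Mitochondrial ribosomal proteins, which make the subunits encoded in mitochondria, rose for 74 of 75 genes (median 1.30).

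All 21 genes of the tricarboxylic acid cycle and pyruvate dehydrogenase rose, by 1.51 to 3.00 on the log2 scale. Citrate synthase (Cs) measured 184, 168, 901 and 775 FPKM and Ogdh, the first enzyme of the oxoglutarate dehydrogenase complex, 105, 99.5, 781 and 866 FPKM. Its relative Ogdhl, among the 12 largest rises of all genes, measured 1.9, 1.62, 91.3 and 78.2 FPKM. Carriers that bring pyruvate into mitochondria rose too, Mpc1 at 92.2, 80.5, 665 and 730.2 FPKM and Mpc2 at 95.4, 86.6, 455 and 464 FPKM. Of the kinases that switch pyruvate dehydrogenase off, Pdk2 rose by 2.78 ± 0.21 and Pdk1 by 1.86 ± 0.17 on the log2 scale while Pdk3 fell by 2.03 ± 0.20. Pdk4, the form induced by fasting and fatty acids, measured 129.7, 137, 128 and 468 FPKM, with only PN67 standing apart. It was not called, but without PN30 it was called up (log2 change 1.81), and without PN67 the change was -0.06.

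In fatty acid oxidation 23 of 29 genes rose and 3 fell (median log2 change 1.86). Entry into mitochondria passes through carnitine palmitoyltransferases. The muscle form Cpt1b measured 90.7, 78.2, 272 and 337 FPKM, the liver form Cpt1a 14.1, 13, 10.7 and 15.4 FPKM without a call (log2 change -0.07 ± 0.19, but -0.51 and called with equal sums), and Cpt2, on the inner membrane, 22.1, 21.4, 129 and 159 FPKM. Within the spiral, the medium-chain dehydrogenase Acadm measured 147, 142, 907 and 983 FPKM, the trifunctional beta subunit Hadhb 233, 234, 1446 and 1675 FPKM and the hydratase Echs1 65.2, 56.6, 447 and 429 FPKM. For each of these 3 the later values were at least 6 times the neonatal ones. The 3 falls were acyl-CoA synthetases, Acsl3, Acsl4 and Acsl5, against a log2 rise of 2.03 ± 0.20 for Acsl1, the main form of the heart. Malonyl-CoA, which blocks entry, is made by Acacb and removed by Mlycd, and both rose, by 2.36 ± 0.17 and 2.29 ± 0.16 on the log2 scale.

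Uptake and storage of fatty acids showed 15 rises and 3 falls of 20 genes. Lipoprotein lipase (Lpl), which frees fatty acids at the vessel wall, measured 38.1, 33.6, 327 and 435 FPKM and the transporter Slc27a1 7.8, 7.56, 48.7 and 68 FPKM. Of the 4 perilipins tested, which coat lipid droplets, 3 rose, Plin3 by 2.92 ± 0.19 on the log2 scale, Plin5 to 77.1 and 112 FPKM from 5.83 and 6.41 and Plin4 to 44.7 and 85.3 from 4.01 and 3.19. Plin2 was not called (log2 change -0.19 ± 0.31). Dgat2, which makes triglyceride, rose by 3.65 ± 0.23 on the log2 scale (adjusted p at most 4.02e-05). Use of ketone bodies and branched-chain amino acids rose for 20 of 22 genes, with the high median log2 change of 2.62. Oxct1, which activates ketone bodies, measured 41.7, 36.8, 845 and 736 FPKM. Bdh1, which oxidizes hydroxybutyrate, measured 0.769, 0.45, 19.7 and 118 FPKM, a rise to very unlike levels at the 2 later ages, and its log2 change of 4.95 ± 0.67 was 3.69 without PN67 and 6.22 without PN30. The branched-chain dehydrogenase subunit Bckdha measured 27.8, 26.7, 186 and 268 FPKM and Ivd, of leucine breakdown, 19.6, 15.7, 167 and 201 FPKM.

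Genes of glucose use changed in both directions. Of 30 genes of glucose transport, glycolysis and glycogen 20 rose and 4 fell (median log2 change 1.29). The insulin-responsive transporter Slc2a4 (GLUT4) measured 13.8, 11, 221 and 231 FPKM and the fetal transporter Slc2a1 (GLUT1) 22.1, 25.5, 5.86 and 7.68 FPKM. Slc2a4 rose by 4.09 ± 0.20 and Slc2a1 fell by 1.68 ± 0.27 on the log2 scale (adjusted p at most 0.00101). Hexokinase 2 (Hk2), the insulin-responsive form, measured 8.88, 9.67, 88.1 and 82.6 FPKM and Hk1 28.9, 22.5, 41.8 and 40.3 FPKM. Hk2 rose by 3.07 ± 0.24 on the log2 scale, and Hk1 was called up at 0.67 ± 0.16 but not without the neonatal PN1 library (0.49), with FPKM as deposited (0.32) or with equal sums (0.21). The bifunctional regulators of glycolysis changed in opposite directions, Pfkfb2, the heart form, up by 3.39 ± 0.25 and Pfkfb3, the form of growing cells, down by 2.21 ± 0.20 on the log2 scale. Muscle forms at later steps rose, Pfkm to 413 and 379.7 FPKM from 58.2 and 52.8, and glycogen phosphorylase Pygm to 524 and 541 FPKM from 72 and 58.9. Tpi1 and Gapdh have many near-identical pseudogenes, so their values, 1.64, 1.53, 1.61 and 0.893 FPKM and 27.9, 23.5, 49.5 and 41.2 FPKM, are uncertain.

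Shuttles that carry high-energy phosphate rose for 12 of 17 genes and none fell. The cytosolic creatine kinase of muscle, Ckm, measured 504, 429.5, 1886 and 1698 FPKM and the brain form Ckb 52.6, 41.1, 52.5 and 38.9 FPKM, which was not called. The heart nucleotide exchanger Slc25a4 measured 1041, 863, 3574 and 3365 FPKM and its widely expressed relative Slc25a5 363, 331, 370.4 and 286 FPKM, also not called. With FPKM as deposited and with equal sums Slc25a5 was called down (log2 changes -0.45 and -0.56). Among genes of mitochondrial dynamics and turnover 19 of 22 rose, with the fusion proteins Mfn1 and Mfn2 at 2.43 ± 0.17 and 2.43 ± 0.18, the fission protein Mtfp1 at 3.87 ± 0.13 and the damage sensor kinase Pink1 at 3.19 ± 0.21 on the log2 scale.

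Regulators of these programmes rose for 16 of 26 genes and fell for 5, and with equal sums 12 rose and 7 fell. The nuclear receptors Esrra and Ppara, activators of oxidative genes, measured 20.5, 18.9, 85.8 and 75.3 FPKM and 2.6, 1.97, 16.4 and 16.4 FPKM. Rxrg, a retinoid X receptor that pairs with such receptors, measured 0.648, 0.554, 49.4 and 50.5 FPKM and was among the 12 largest rises of all genes (log2 change 4.99 ± 0.12, adjusted p = 1.04e-06). Perm1, a muscle regulator downstream of them, rose by 3.68 ± 0.13, Klf15 by 3.73 ± 0.24 and the coactivator Ppargc1a by 1.45 ± 0.25 on the log2 scale. Nrf1 and Gabpb1, activators of genes for respiratory subunits, fell, by 1.11 ± 0.15 and 1.32 ± 0.18, and so did the oxygen-regulated transcription factor Hif1a, by 1.16 ± 0.13 (adjusted p at most 0.00146).

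Genes of DNA synthesis and division fell. Of 42 genes of mitosis and cytokinesis 41 fell and 0 rose (median log2 change -1.97), and of 37 of DNA replication 32 fell and 1 rose (median -1.31). Below are shown the 250 bases before the start of 2 of them, Top2a, the topoisomerase that untangles chromosomes, and Ccnb1, cyclin B1, which drives entry into mitosis. The sequences are from RefSeq on build GRCm38.p6 and read 5′ to 3′ on the gene's strand, and capitals mark matches to CCAAT and to TTTGAA on either strand. Both are motifs known from promoters of late cell cycle genes, the first a binding site of NF-Y and the second the cell cycle homology region.
Top2a (chr11:99024190-99024439, minus strand): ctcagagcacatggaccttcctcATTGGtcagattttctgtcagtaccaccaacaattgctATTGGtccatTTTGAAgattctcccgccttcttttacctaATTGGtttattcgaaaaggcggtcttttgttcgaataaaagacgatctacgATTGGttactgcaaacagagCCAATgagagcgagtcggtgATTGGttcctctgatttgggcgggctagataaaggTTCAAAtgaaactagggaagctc
Ccnb1 (chr13:100786487-100786736, minus strand): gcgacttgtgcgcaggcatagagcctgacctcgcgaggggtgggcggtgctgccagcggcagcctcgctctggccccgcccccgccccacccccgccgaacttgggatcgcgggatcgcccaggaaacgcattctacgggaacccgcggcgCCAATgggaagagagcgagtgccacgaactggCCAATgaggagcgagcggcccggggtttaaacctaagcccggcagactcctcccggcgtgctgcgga
Of the 37 mitosis genes with such a window, 27 (73.0%) held CCAAT and 14 (37.8%) held TTTGAA. Over the 9140 tested genes with a window the shares were 40.4% and 12.8%, and the motifs do not overlap each other in sequence. For DNA replication 19 of 30 (63.3%) held CCAAT and 4 (13.3%) TTTGAA. The other motifs searched in the same windows, on both strands, were TCAAGGTCA and AAGGTCA (nuclear receptor sites, the second contained in the first), TATTTTTA (MEF2), TTTCCCGC (E2F), GCATGCGC (NRF1), the TEAD motif CATTCC and, for zinc finger factors of heart development, AGATAA. TTTCCCGC was in 3 of the 30 replication windows and 0 of the 37 mitosis windows, against 2.00% of tested genes. AAGGTCA was in 3 of 33 windows of complex I (9.09%), 0 of 19 of the tricarboxylic acid cycle and 1 of 26 of fatty acid oxidation (3.85%), against 3.45% of tested genes. A match describes these letters and says nothing about binding.

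Top2a measured 15.9, 19.5, 2.61 and 0.744 FPKM and Ccnb1 10.3, 11.6, 1.08 and 0.477 FPKM. The proliferation antigen Mki67 measured 12.6, 15.1, 2.01 and 0.695 FPKM and the passenger protein Birc5 16.3, 17.7, 1.8 and 0.913 FPKM. In all 4 the neonatal values were several times the later ones, and PN30 stood above PN67. The log2 falls were -2.89 ± 0.31 for Top2a, -2.77 ± 0.20 for Ccnb1, -2.71 ± 0.35 for Mki67 and -2.96 ± 0.19 for Birc5 (adjusted p at most 3.08e-04). The histone variant Cenpa, which marks centromeres, was the member of the mitosis list without a call, at 33.2, 37, 26.8 and 26.5 FPKM (log2 change -0.38 ± 0.16). Without either later fibroblast library the same change was called, as were the changes of -0.73 with FPKM as deposited and -0.84 with equal sums. In the replication list the helicase subunit Mcm6 measured 15.5, 16.3, 3.57 and 1.22 FPKM and the reductase Rrm2, which supplies deoxynucleotides, 19.9, 21.6, 2.51 and 1.69 FPKM. Gmnn, geminin, which blocks relicensing of origins, was the 1 rise, at 14.1, 14.5, 32.1 and 44 FPKM. Both lists fell in fibroblasts as well (42 of 42 and 35 of 37 genes), and in ventricles 40 of 41 and 33 of 36 had a called fall, which without E17 was 36 and 16. Endothelial markers fell over the same step, as given above, and their part in these falls was not tested.

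Earlier in the cycle the picture was mixed. Of 30 G1 regulators 3 rose and 15 fell, and with equal sums 23 fell. The D-type cyclins Ccnd1, Ccnd2 and Ccnd3 measured 23, 20.6, 26.1 and 15 FPKM, 19.6, 17.4, 18.2 and 13.8 FPKM and 38.2, 34.3, 29.7 and 24 FPKM and were not called. Ccnd1 was called down without PN30 (log2 change -0.51), Ccnd3 without either later fibroblast library (-0.43), and both Ccnd2 and Ccnd3 with FPKM as deposited (-0.55 and -0.78) and with equal sums (-0.65 and -0.88). The activator E2f1 measured 6.28, 5.96, 1.17 and 0.527 FPKM and the kinase Cdk2 22.1, 22.3, 8.43 and 5.8 FPKM, both lower in each later library. Myc measured 77.9, 80.1, 1.77 and 3.28 FPKM and the inhibitor Cdkn1a (p21) 147, 172, 11 and 23 FPKM, so a driver and a brake of the cycle were both lower in later cells. Ccng1, cyclin G1, rose by 2.96 ± 0.14 on the log2 scale.

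17 of 19 imprinted and fetal growth genes fell and none rose (median log2 change -1.99). H19, a noncoding RNA made from the maternal copy, measured 1127, 954, 24.9 and 11.9 FPKM (chr7:149761434-149764048), and its neighbour Igf2, a growth factor made from the paternal copy, 581, 558, 27.3 and 12.4 FPKM (chr7:149836673-149852721). Plagl1, a transcription factor, measured 110.4, 103, 3.52 and 2.05 FPKM. These 3 were among the 12 largest falls of all genes, with log2 changes of -5.83 ± 0.34, -4.87 ± 0.32 and -4.86 ± 0.20 (adjusted p at most 1.37e-05). The RNA binding proteins Igf2bp2 and Igf2bp3, which stabilize Igf2 messages in the embryo, measured 14.8, 16.8, 0.984 and 0.815 FPKM and 5.54, 4.75, 0.192 and 0.147 FPKM. The chromatin protein Hmga2 measured 3.00, 3.39, 0.0335 and 0.0532 FPKM. For each of these 6 genes both later values lay below both neonatal ones. The 2 genes without a call, Cdkn1c and Gnas, had log2 changes of -0.23 ± 0.18 and -0.26 ± 0.12, and both were called down with FPKM as deposited (-0.57 and -0.62) and with equal sums. For Gnas the change was also called without either later fibroblast library. In ventricles 17 of 18 had a called fall over the stages, and 10 without E17. The list fell in fibroblasts as well, with 15 of 19 genes down and 1 up (median log2 change -1.74). The difference between the cell types was called for 6 genes in each direction.

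The cytoplasmic ribosome went opposite to the mitochondrial one. Of 78 genes of cytoplasmic ribosomal proteins 74 fell (median log2 change -0.92) and 1 rose. Summed, the 80 genes with a value held 10.3%, 10.5%, 3.98% and 4.34% of the FPKM of the 4 libraries. Many have near-identical pseudogenes, so single values are uncertain. The rise was Rpl3l, a form of ribosomal protein L3 made in striated muscle, at 1.89, 2.57, 206 and 194 FPKM, and its widely expressed counterpart Rpl3 measured 309, 304, 79.7 and 87.4 FPKM. Rpl3l rose by 5.97 ± 0.15, the third largest rise of all genes tested, and Rpl3 fell by 1.87 ± 0.10 on the log2 scale (adjusted p at most 7.40e-06). In ventricles 6 of 78 ribosomal protein genes had a called fall (2 without E17, 3 without PN1 or PN28, 11 without PN90, and 32 with FPKM as deposited), and in fibroblasts 22 fell and 3 rose.

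Elongation factor 1 alpha showed a similar exchange. Eef1a2, the form of muscle and neurons, measured 10.3, 11.1, 132 and 117 FPKM and rose by 3.42 ± 0.18 on the log2 scale (adjusted p = 7.35e-06). Its counterpart Eef1a1 was left out of the tests, because at least 1 transcript had no estimate in a cell library. Poly(A) binding protein Pabpc1 measured 272, 309, 55 and 51.3 FPKM and the helicase Eif4a1 352, 393, 152 and 129 FPKM, while its paralogue Eif4a2 measured 129, 125, 226 and 269.9 FPKM. Of 28 translation factors 5 rose and 14 fell, with 3 and 22 under equal sums and 9 falls without the neonatal PN1 library. Ribosome biogenesis genes divided into 3 rises and 13 falls of 30, and 0 and 17 with equal sums. The nucleolar protein Npm1 measured 387, 414, 120.03 and 133 FPKM.

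Splicing regulators fell for 25 of 39 genes and rose for 8, and with equal sums 31 fell and 5 rose. With FPKM as deposited, and without the neonatal PN1 library, 5 rose as well. The repressors Ptbp1 and Ptbp3 measured 119, 130.2, 21 and 17.8 FPKM and 45.6, 46.9, 6.86 and 9.02 FPKM. Rbfox1, a regulator of muscle and neuronal exons, measured 1.06, 0.987, 7.84 and 6.95 FPKM, Rbm20, the titin splicing factor, 23.3, 19.8, 66.8 and 56.7 FPKM, and Celf2 7.44, 5.61, 21.9 and 23.5 FPKM. Ptbp1 fell by 2.63 ± 0.27 and Rbfox1 rose by 2.05 ± 0.12 on the log2 scale (adjusted p at most 6.99e-04). General factors such as Hnrnph1 and Tra2b fell by 1.69 ± 0.15 and 1.65 ± 0.12.

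Use of transcript isoforms changed alongside. Of 10433 isoforms tested, 1985 (19%) changed their share of the gene's FPKM by 10 percentage points or more with an adjusted p below 0.05, up in 10.4% and down in 8.58%, in 1198 of 3786 genes. Of these 1198 genes 377 had no call for the gene's total, a share similar to that over all genes tested (3984 of 12072 without a call). 2 exons known for their developmental use are shown whole, because the isoforms that carry and lack them in GENCODE M21 changed in share in opposite directions. They are from build GRCm38 and GENCODE M21, both on the plus strand and wholly coding. The 30 bases of the fetal exon of cardiac troponin T are in Tnnt2-204 and not in Tnnt2-201, and the 81 bases of exon 15, used in striated muscle, are in the Fxr1-201 model and not in Fxr1-202.
Tnnt2 fetal exon (chr1:135843785-135843814): AGGAAGACTGGAGTGAAGAAGAGGAGGACG
Fxr1 muscle exon (chr3:34064974-34065054): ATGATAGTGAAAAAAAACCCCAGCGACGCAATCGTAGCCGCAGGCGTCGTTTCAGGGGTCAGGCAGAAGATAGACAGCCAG
The models differ elsewhere too, Fxr1-201 and Fxr1-202 also by a 53-base and a 92-base exon. The deposited lengths were 1097 against 1112 bases in M21 for Tnnt2-204, 1064 in both for Tnnt2-201, 2323 against 2459 for Fxr1-201 and 2063 against 1986 for Fxr1-202, so the deposited annotation had somewhat other ends for 3 of the 4. That the exons themselves were the same there was not tested.

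Tnnt2-204 held 59.8, 53.3, 11.2 and 8.88 percent of Tnnt2 FPKM and Tnnt2-201 23.9, 30.7, 68.2 and 71.1 percent. Tnnt2-204 thus led in both neonatal libraries and Tnnt2-201 in both later ones. The changes were -46.5 percentage points (adjusted p = 1.06e-04) and 42.3 points (adjusted p = 2.30e-04). For Fxr1, an RNA binding protein of muscle, Fxr1-201 held 39.7, 34.4, 86.8 and 86.2 percent, a change of 49.4 points (adjusted p = 7.81e-04). In fibroblasts (PN1-3, PN1-2, PN28 and PN60) Fxr1-201 held 4.55, 2.71, 0.0217 and 2.55 percent.

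**Figure D3:**
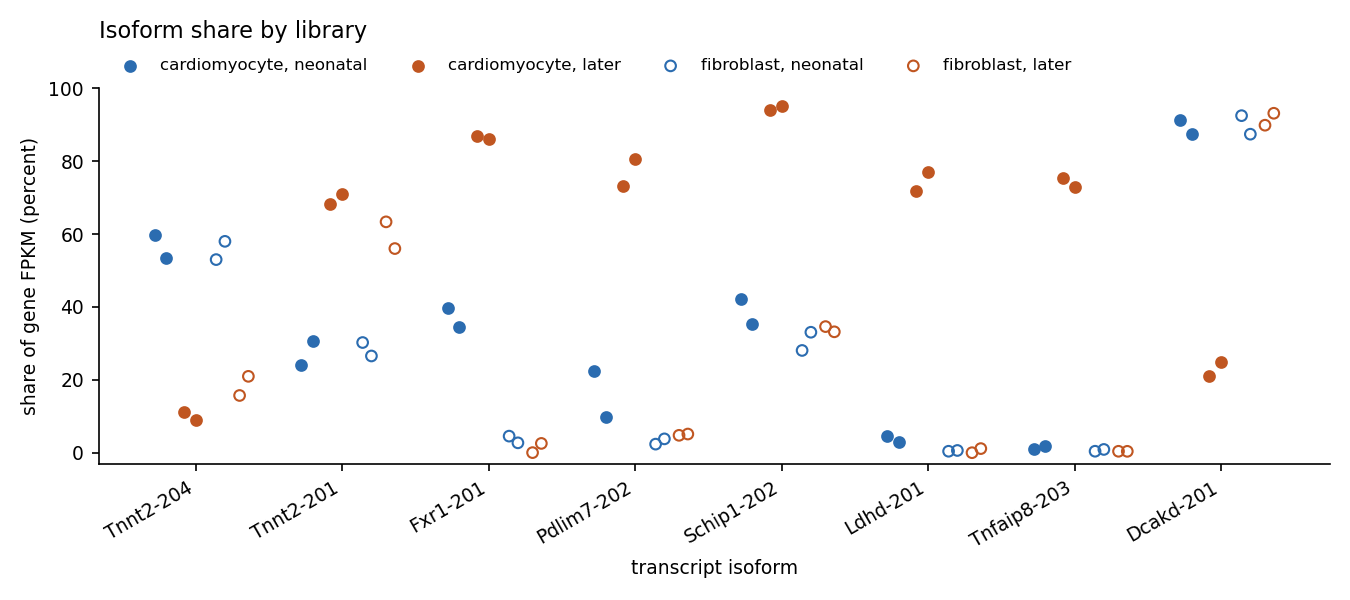
Share of the gene's FPKM held by 8 isoforms in the 4 cardiomyocyte (filled) and 4 fibroblast (open) libraries, on a linear axis from 0 to 100 percent. Tnnt2-204 drops from 59.8% and 53.3% to 11.2% and 8.88% in cardiomyocytes, while Fxr1-201, Pdlim7-202, Schip1-202, Ldhd-201 and Tnfaip8-203 stand higher in both later libraries.

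The largest gain of share was that of Synpo-211, an isoform of the actin binding protein synaptopodin, at 1.49, 1.12, 75.9 and 84.7 percent, followed by Tnfaip8-203 at 0.924, 1.74, 75.4 and 73 percent and Itga6-205 at 13.1, 9.16, 80.1 and 85.9 percent, the last of which is annotated as a processed transcript. Ldhd encodes the mitochondrial D-lactate dehydrogenase. Its coding isoform Ldhd-201 held 4.61, 2.92, 71.9 and 77 percent and Ldhd-203, annotated as a retained intron, 94.3, 96.8, 24.4 and 18.7 percent. By share, the coding form was thus the major one only in later cardiomyocytes, and in fibroblasts Ldhd-203 held 98.7, 98.4, 98.9 and 97.9 percent. The neonatal shares rest on low levels, as the gene's total was 3.49, 3.73, 29.2 and 34.2 FPKM. Ldhd-203 itself measured 3.29, 3.61, 7.13 and 6.40 FPKM. The Z disc protein Pdlim7 (enigma) moved from Pdlim7-201 at 54.5, 64.9, 7.98 and 4.11 percent to Pdlim7-202 at 22.4, 9.87, 73.3 and 80.7 percent. The scaffold Schip1 moved from Schip1-201 to Schip1-202 and the zinc finger gene Zfp655 from Zfp655-202 to Zfp655-201, with changes of 55.7 and 56.1 points for the gaining forms. The metabolic gene Dcakd went the other way, its coding isoform Dcakd-201 falling in share from 91.2 and 87.5 to 20.9 and 24.9 percent while the retained intron Dcakd-203 rose to 74.5 and 69 percent. The level of Dcakd-201 changed little, at 14.3, 13.2, 13.4 and 11.9 FPKM, while Dcakd-203 measured 0.247, 0.782, 47.8 and 33.1 FPKM. Other losses among the 8 largest were Noct-203, Tmem255a-201 and Atp13a3-201 (-53, -52.7 and -50.7 points). Fragments shared by isoforms are divided among them by an estimate in Cufflinks, which resolves similar isoforms poorly.

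Transcription factors of the heart lineage were next. Of 35 genes 12 rose and 11 fell, with 2 and 7 by a log2 change of 1 or more. With FPKM as deposited 6 rose, with equal sums 4, and without the neonatal PN1 library 6. Nkx2-5 measured 28.4, 24.1, 53.2 and 44.4 FPKM and the cofactor Hopx 92.6, 83.2, 277 and 246 FPKM, both called up. Effectors of the Hippo pathway, which restrains heart growth, changed in both directions. The coactivator Wwtr1 (TAZ) measured 89.5, 101, 26.5 and 24.1 FPKM, its partners Tead2 and Tead4 18.7, 17.6, 2.44 and 2.75 FPKM and 7.63, 7.37, 1.66 and 1.78 FPKM, and Tead1 22.9, 20.6, 46.3 and 38.1 FPKM, the one of these that rose. Yap1 and Tead3 had log2 changes of -0.39 ± 0.28 and 0.04 ± 0.17 and were not called. Yap1 was called down with equal sums (-0.85) and, at -0.39, without either later fibroblast library or with the 4 cardiomyocyte libraries alone.

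Receptors for hormones and growth factors rose for 15 of 31 genes and fell for 9. The thyroid hormone receptor Thrb measured 0.179, 0.211, 3.96 and 4.13 FPKM and Thra 49.8, 41.4, 60.02 and 50.8 FPKM, the latter not called. The insulin receptor Insr measured 8.17, 7.24, 25.1 and 24.8 FPKM and the receptor for insulin-like growth factor 1, Igf1r, 10.3, 10.9, 2.89 and 3.53 FPKM, so that the order of the 2 was reversed between the stages. Autonomic receptors rose, the beta-1 adrenoceptor Adrb1 by 1.15 ± 0.19, the alpha-1B adrenoceptor Adra1b by 2.25 ± 0.22 and the muscarinic receptor Chrm2 by 2.78 ± 0.22 on the log2 scale. Erbb2, the neuregulin co-receptor tied to newborn myocyte division, had a log2 change of -1.25 ± 0.17 and Fgfr2 one of -1.99 ± 0.19 (adjusted p at most 0.00125). The count of falls was 5 without PN67, without PN1-2 or without the neonatal PN1. Among muscle-type ubiquitin ligases and other proteolysis genes 16 of 21 rose and 3 fell. The adaptor Klhl33 measured 0.349, 0.246, 23.7 and 19.6 FPKM, while Sqstm1, the autophagy receptor p62, fell from 609 and 762 to 182 and 296 FPKM.

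Matrix genes fell for 23 of 42 and rose for 7 (median log2 change -0.65), and without PN67 11 rose. Fibronectin (Fn1) measured 37.9, 38.9, 1.55 and 0.405 FPKM and collagen XVIII (Col18a1) 72.3, 75.9, 6.73 and 3.2 FPKM, for both of which both neonatal values were at least 10 times the later ones. Laminin chains exchanged, Lama2 of the adult muscle basement membrane at 7.25, 6.68, 24.2 and 24.3 FPKM and Lama4, of vessels and fetal muscle, at 63.4, 77.6, 32.4 and 22.3 FPKM. Among integrins and matrix receptors 8 rose and 9 fell of 21. The laminin receptor subunit Itga7 measured 8.88, 8.84, 74.3 and 56.9 FPKM and the fibronectin receptor subunits Itga5 and Itgav 115, 139, 28.3 and 17.6 FPKM and 35.3, 45.1, 6.86 and 6.45 FPKM. Itga7 rose by 2.74 ± 0.17 and Itga5 fell by 2.45 ± 0.25 on the log2 scale (adjusted p at most 4.03e-04). Fibroblasts and vessels also make these matrix genes, and markers of vessels fell between the stages as given above.

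A further group of genes was high in neonatal isolates and low in whole newborn ventricles. Heme oxygenase Hmox1 measured 466, 602, 6.33 and 11.5 FPKM in cardiomyocytes, against 2.86, 3.4, 3.34, 2.39 and 2.98 FPKM in ventricles from E17 to PN90. The xenobiotic enzyme Cyp1a1 measured 57.8, 43.7, 0.00745 and 0.0283 FPKM against 0.0056 FPKM in the PN1 ventricle. The leukocyte adhesion molecules Icam1 and Sele measured 277, 385, 5.67 and 7.18 FPKM and 55.2, 65.8, 0.622 and 0.571 FPKM, against 2.48 and 1.34 FPKM there. All 4 were among the 12 largest falls (log2 changes from -5.79 ± 0.50 to -5.26 ± 0.18, adjusted p at most 4.35e-05). The neutrophil gene S100a8, also among the 12, measured 78.7, 123, 1.76 and 1.99 FPKM against 8.56 FPKM, and Gm5483, a stefin-like gene with near-identical copies and thus uncertain, measured 38.6, 58.2, 0.038 and 0.0402 FPKM. Of the 1821 genes that fell by a log2 change of 1 or more, 1817 had a ventricle value, and for 324 of these the mean neonatal cardiomyocyte FPKM was at least 10 times the FPKM of the PN1 ventricle (taken as at least 0.05). This set was chosen by its neonatal values, which also enter the ratio. The share over all genes tested was not taken, so the count does not show an excess. Ventricle and cell libraries were scaled separately and made with different kits, so a level set across them also holds that difference. The part that isolation had in these genes cannot be told apart from stage.

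**Figure D4:**
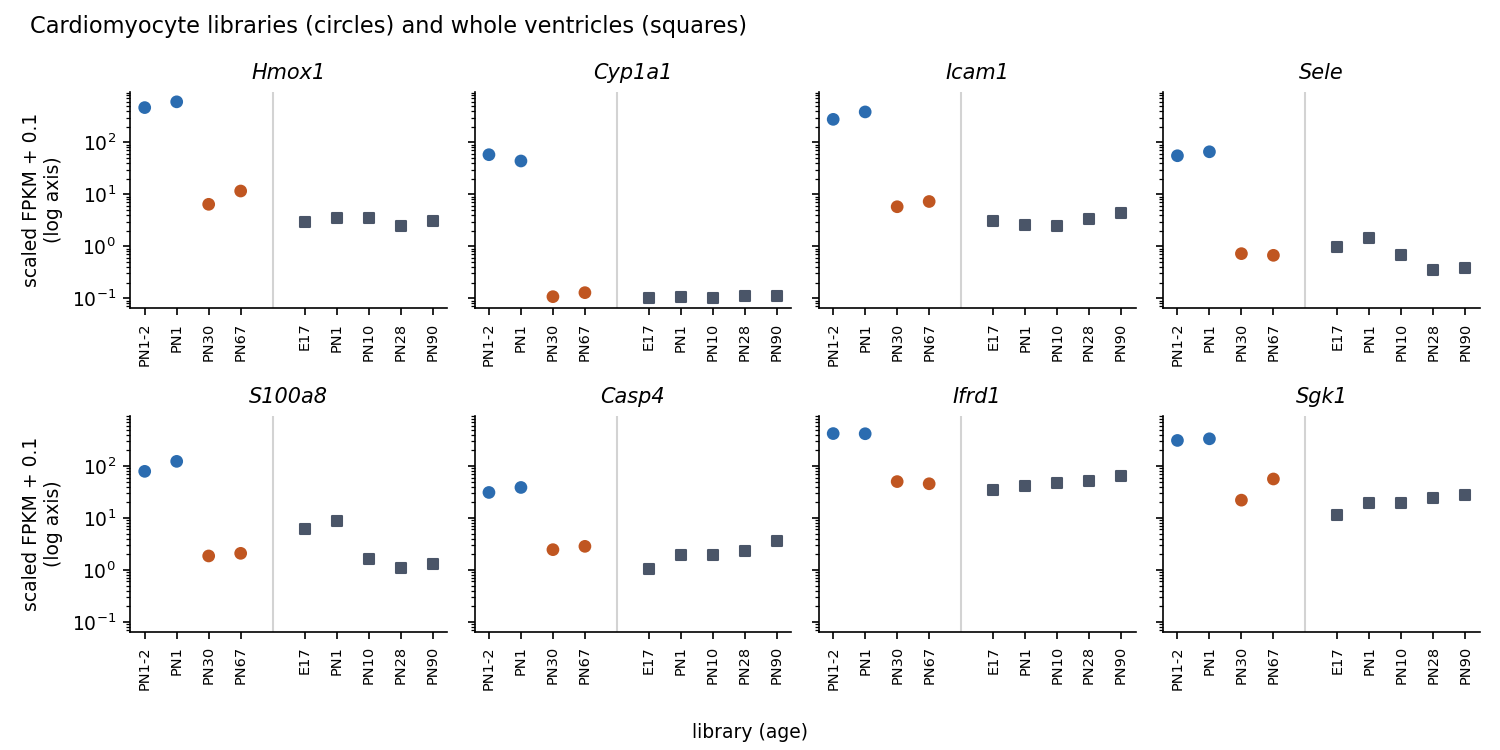
Scaled FPKM of 8 genes high in neonatal isolates, in the 4 cardiomyocyte libraries and the 5 ventricle stages, on a log axis with 0.1 added, 1 point per library. For Hmox1 the neonatal cardiomyocyte libraries stand at 466 and 602 FPKM and the PN1 ventricle at 3.40 FPKM, with the 2 kinds of library scaled separately.

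Immediate early and acute stress genes, which respond within minutes to handling, fell for 14 of 30 genes and rose for 0. Fosl1 measured 5.64, 6.03, 0.0238 and 0.00644 FPKM, Klf6 178, 201, 16.8 and 29.4 FPKM and the phosphatase Dusp5 27.8, 28.8, 3.79 and 2.49 FPKM. Several others had their lowest value at PN30 and a PN67 value close to the neonatal ones. Fos measured 286, 272, 69.6 and 207 FPKM, Egr1 129.8, 122, 52.4 and 129.6 FPKM and Zfp36 129, 149, 43.1 and 159.8 FPKM, without a call for any of the 3. Without PN67 Egr1 and Zfp36 were called down (log2 changes -1.25 and -1.66), while without PN30 they were 0.04 and 0.20. For Fos the change of -1.21 ± 0.73 was called without either later fibroblast library, and was -1.99 without PN67 and -0.43 without PN30, neither called. Summed, the 30 genes stood at 2406 and 2484 FPKM in neonatal libraries, 675 at PN30 and 1619 at PN67. Of 19 genes of the oxidative and xenobiotic response 9 fell and 5 rose, and with equal sums 12 and 4. Txnrd1, thioredoxin reductase, measured 85.9, 119, 18.6 and 18.7 FPKM and Gclc, of glutathione synthesis, 31.1, 39.9, 5.14 and 5.74 FPKM, but Nqo1, a quinone reductase of the same response, 5.35, 5.99, 40.9 and 55 FPKM.

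Chaperones of muscle and of heat stress changed in both directions. Of 22 genes 10 rose and 5 fell, with 8 and 8 under equal sums. The small heat shock proteins Hspb6 and Hspb8 measured 58, 51.2, 498 and 567 FPKM and 41.9, 42.7, 362 and 406 FPKM. The inducible Hspa1a measured 52.5, 78.9, 5.61 and 3.25 FPKM and Hsp90aa1 275, 320.2, 67.9 and 58.1 FPKM. Hspa1a has the near-identical copy Hspa1b, so their split is uncertain.

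The remaining genes among the 12 largest rises were the carboxylesterase Ces1d (0.469, 0.247, 65.1 and 116 FPKM), one of a family of similar genes and so uncertain, the tubulins Tuba8 (0.746, 0.952, 90.3 and 69.1 FPKM) and Tuba4a (12.4, 12.2, 456 and 355 FPKM), Trim72, which seals membrane tears (6.05, 6.43, 273 and 242 FPKM), and the kinase Mylk4 (2.3, 1.25, 104 and 87.7 FPKM). For these 5 the later values lay far above the neonatal ones, with log2 changes from 4.92 ± 0.27 to 6.02 ± 0.39. Elastin (Eln), the last of the 12 largest falls not yet given, measured 580.01, 646, 32.3 and 10.8 FPKM, with a log2 change of -4.95 ± 0.49 that was -4.20 without PN67 and -5.70 without PN30.

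How far these changes differ from those of the other cell type was tested as the cardiomyocyte change minus the fibroblast change in the same fit. Of 12072 genes 7070 differed (58.6%), 3895 toward higher in cardiomyocytes (32.3%) and 3175 toward lower (26.3%). The 8 largest positive differences were Ckmt2, Myl3, Myl2, Tnnt2, Cox6a2, Tnni3, Art1 and Pln, from 7.56 ± 0.29 for Ckmt2 to 6.50 ± 0.16 for Pln on the log2 scale. In fibroblast libraries (PN1-3, PN1-2, PN28 and PN60) Myl2 measured 587, 505, 10.01 and 14.4 FPKM and Tnnt2 278, 241, 5.89 and 7.19 FPKM, so the neonatal fibroblast libraries held muscle RNA that was nearly absent from the later ones. The part of this fall in the differences was not tested. Cox6a2 and Art1 measured 40.9, 32, 1.18 and 1.9 FPKM and 0.0763, 0.109, 0.0273 and 0.0112 FPKM in fibroblasts. The 8 largest negative differences were Il6, Cxcl2, Cxcl3, Hmox1, Csf2, Il1rn, Procr and Selp, from -10.96 ± 0.47 for Il6 to -7.19 ± 0.24 for Selp (adjusted p at most 1.60e-04). Without PN67 the difference of Cxcl2 was -9.73 and without PN30 -8.44. Without the later fibroblast libraries PN60 or PN28 in turn, those of Cxcl3, Hmox1, Csf2 and Il1rn lay between -6.58 and -9.61, all called. The cytokine Il6 measured 5.92, 7.94, 0.25 and 0.852 FPKM in cardiomyocytes and 9.79, 4.3, 2871 and 2937 FPKM in fibroblasts, falling in the first and standing far higher in later fibroblasts.

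For the metabolic lists the direction itself differed between the cell types. The median log2 change of complex I was 1.90 in cardiomyocytes and -0.73 in fibroblasts, that of fatty acid oxidation 1.86 and -0.83, and that of the tricarboxylic acid cycle 2.13 and -0.35. The difference was called toward cardiomyocytes for 37 of 37, 25 of 29 and 21 of 21 genes. Fibroblast libraries at birth held muscle RNA, as given for Myl2, and the part of its loss in the fibroblast medians was not tested. Mitosis genes had medians of -1.97 and -2.09, with a called difference for 6 genes toward cardiomyocytes and 1 toward fibroblasts. Splicing regulators had -0.72 and 0.16, and 25 of 39 were called lower in the cardiomyocyte change.

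Whole ventricles cover the same weeks without cell isolation, but they start before birth, were made as other libraries and hold all their cell types together. They were fitted as a slope over the order of E17, PN1, PN10, PN28 and PN90. The part of the mix of cell types in these slopes was not tested. Of 11617 genes tested there, 2367 rose (20.4%) and 1692 fell (14.6%), and with FPKM as deposited 1271 rose and 3444 fell. The calls depended on single stages. Without E17 660 rose and 525 fell, without PN1 1467 and 970, and without PN28 1383 and 945. Of 4275 genes that rose in cardiomyocytes and were tested in ventricles, 1851 (43.3%) had a called rise and 48 (1.12%) a called fall. Of 3071 that fell in cardiomyocytes, 1031 (33.6%) had a called fall and 100 (3.26%) a called rise. Without E17 the shares with a call in the cardiomyocyte direction were 13.1% and 12.3%, without PN1 28.7% and 20.9%, and without PN28 26.9% and 20.5%. With FPKM as deposited they were 24.6% and 56.5%. Seen from the ventricle, 82.1% of 2254 genes with a called rise also rose in cardiomyocytes and 69.0% of 1495 with a called fall also fell. No ventricle call in either direction was made for 2376 of the first set and 1940 of the second.

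**Figure D5:**
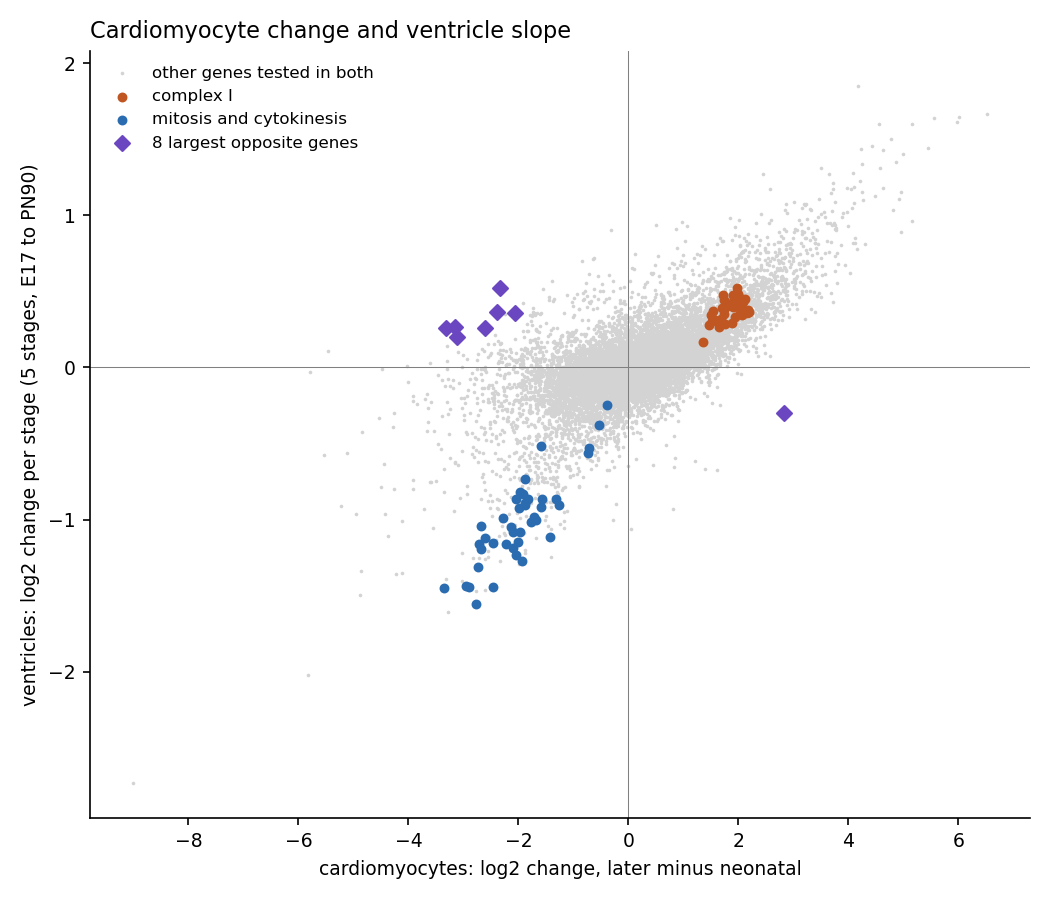
Cardiomyocyte log2 change (x axis, later minus neonatal) against ventricle slope (y axis, log2 per stage over 5 stages) for each gene tested in both, with complex I genes, mitosis and cytokinesis genes and the 8 largest opposite genes in colour. Complex I genes lie in the upper right and mitosis genes in the lower left.

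Genes called in opposite directions were few. Among the 8 with the largest cardiomyocyte change were Casp4, Sgk1, Ifrd1, Hist1h4h, Pvr, St8sia4 and Cxcl16. Of the 8, 7 fell in cardiomyocytes and rose in ventricles. The ventricle call was kept by 1 of the 8 without E17, 6 without PN1, 8 without PN10, 5 without PN28 and 4 without PN90. The kinase Sgk1, induced by corticosteroids and stress, measured 309.7, 333, 21.9 and 56.1 FPKM in cardiomyocytes and 11.2, 19.5, 19.1, 23.7 and 27.2 FPKM in ventricles. Its log2 change in cardiomyocytes was -3.16 ± 0.38, -3.81 without PN67 and -2.50 without PN30. Casp4, an inflammatory caspase, measured 30.8, 38.5, 2.35 and 2.74 FPKM and 0.938, 1.86, 1.87, 2.17 and 3.52 FPKM, and Ifrd1, a regulator of muscle differentiation, 419.9, 417, 49.97 and 45.4 FPKM and 34.6, 41.5, 46.4, 50.2 and 64.2 FPKM. In each of these 3 the neonatal cardiomyocyte libraries stood above the ventricle of the same days. The histone gene Hist1h4h rose in cardiomyocytes, at 3.08, 3.4, 31.6 and 26.6 FPKM, and fell in ventricles, at 33.3, 31.7, 20.3, 19.6 and 14.2 FPKM.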

How the data were processed

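RNA-seq of 13 mouse libraries was used, 4 of them cardiomyocytes. Per the submitters' processing notes, reads were handled with TopHat2 2.0.5 and Cufflinks 2.1.1 on mm9. The authors deposited FPKM for 94696 transcripts in each library, with 95% intervals and a status, and no read counts, so depth is unknown. The coverage the authors deposited beside it was 19.5 to 32.8 times the FPKM in the median and served only to compare libraries. The median interval reached from 7.18% to 8.41% to either side of the value. Transcripts were named from GENCODE M21 (82379 matched, 87.0%), and positions are those deposited, on mm9.

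FPKM of transcripts of at least 200 bases were summed per gene, 96 genes with a failed or skipped estimate were left out of the cell set (70 in ventricles), and libraries were scaled by the median ratio to the geometric mean. The test was limma 3.58.1 (R 4.3.3) on log2(FPKM + 1) of genes with a mean of at least 1 FPKM over 8 cell libraries (4 classes of stage and cell type, trended moderation, two-sided, Benjamini-Hochberg adjustment over all genes). Ventricles had 1 library for each stage and were fitted apart. Isoforms were tested as the log2 ratio of their FPKM to that of the gene's other isoforms, with 0.5 added to both, for genes with a mean of at least 5 FPKM. Each fit was tested on simulated data. Alternatives were other pseudocounts, filters and scalings and leaving out each library.

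Lists were gene families by name or pathway and marker genes. Named genes were Tnni1, Tnni3, Ckmt2 and Art1, the 12 largest rises and falls, up to 5 of each list by size, and the 8 largest differences from fibroblasts and from ventricles. The members and lists were chosen with earlier results of these data known. Promoter windows are RefSeq's on GRCm38.p6. Some genes of the lists and named sets are not reported here.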

Additional observations from a re-analysis of the deposited data

Results flagged for a closer look

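The change between the stages was set against that of fibroblasts by a test of the difference itself, and 3895 genes differed toward cardiomyocytes and 3175 toward fibroblasts (limma, adjusted p below 0.05). The genes with the largest differences, as cardiomyocyte log2 change minus fibroblast log2 change, are those named by size in the report. On the positive side these were Ckmt2 (7.56), Myl3 (7.40), Myl2 (6.93), Tnnt2 (6.77), Cox6a2 (6.75), Tnni3 (6.69), Art1 (6.62) and Pln (6.50). Neonatal fibroblast libraries held muscle RNA, at 587 and 505 FPKM of Myl2, and later ones 10.01 and 14.4 FPKM. The part of this loss in the differences was not tested.

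On the negative side were the cytokine Il6 (-10.96), the chemokines Cxcl2 (-9.09) and Cxcl3 (-8.84), heme oxygenase Hmox1 (-7.85), the growth factor Csf2 (-7.51), the interleukin 1 antagonist Il1rn (-7.44), the protein C receptor Procr (-7.43) and the adhesion molecule Selp (-7.19). Csf2 measured 0.284, 0.403, 0.0146 and 0 FPKM in cardiomyocytes and was not called there (log2 change -0.41 ± 0.54, though called with a pseudocount of 0.1), so most of its difference is the fibroblast change, from 2.78 and 1.1 to 734 and 202 FPKM. Cxcl2 measured 33.3, 39.5, 1.17 and 4.3 FPKM in cardiomyocytes and 101, 101, 5669 and 4484 FPKM in fibroblasts, lower with stage in the first and higher in the second.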

How the results depend on the processing

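No paired analysis was possible because the labels number no replicates. The cardiomyocyte change gave 4494 rises and 3594 falls, and the counts stayed within 1.5 times of these with a pseudocount of 0.1, without the filter on low values, with FPKM as deposited, with transcripts of every length, with poorly covered transcripts kept and from the 4 cardiomyocyte libraries alone. Scaling to equal sums of genes not encoded in mitochondria gave 3006 and 5228. Leaving out each cell library gave 3570 to 5044 rises and 2763 to 4084 falls. The difference from fibroblasts gave 3895 and 3175 genes, and 3029 to 4340 and 2265 to 3664 with a library left out. The ventricle slope gave 2367 rises and 1692 falls, 1271 and 3444 with FPKM as deposited, and 660 to 2622 and 525 to 1872 with a stage left out. The share of cardiomyocyte rises with a ventricle rise was 43.3%, 24.6% with FPKM as deposited, 27% without the filter and 13.1% to 46.9% with a stage left out, and of falls with a ventricle fall 33.6%, 56.5%, 20.7% and 12.3% to 36%. Isoform calls were 1985, 874 for genes with a mean of at least 20 FPKM, where fewer isoforms are tested, and 1442 to 2054 with a library left out.

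Of 270 named genes that were checked, 28 crossed the threshold in at least 1 of 15 alternatives. Among those called in the main fit 0 reversed. A change of sign was not counted for genes without a call. It occurred for Egr1 (-0.60 to 0.04) and Zfp36 (-0.73 to 0.20) without PN30, and for Pdk4 (0.87 to -0.06) without PN67. Of 20 isoforms 0 crossed it. Of 53 list counts 10 moved by over 1.5 times. The files give no counts, so depth is unknown. Low FPKM, 1 library for each age and unlike isolation limit every comparison.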

Other observations

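Membrane carriers were taken as a family by name, some of which are also in the pathway lists. Of 170 tested genes of solute carriers 72 rose and 39 fell (median log2 change 0.31), and with equal sums 46 rose and 63 fell, so the balance of the family depends on the scaling. Among its largest rises, beside the glucose transporter Slc2a4 given above, were carriers of mitochondria and of amino acids. Slc25a34, a mitochondrial carrier, measured 4.25, 4.52, 101 and 140.01 FPKM, the aspartate-glutamate carrier Slc25a13 7.41, 5.79, 69.3 and 59.1 FPKM and the glutamine transporter Slc38a3 0.783, 0.754, 31.2 and 29.8 FPKM. All 3 were near or below 7 FPKM in neonatal cells and several times higher in both later libraries. The largest falls were those of the phosphate transporter Slc20a1 at 51.4, 52.8, 7.4 and 6.43 FPKM and the zinc transporter Slc39a6 at 16.6, 20.3, 2.14 and 1.72 FPKM, both of which stayed above 50 FPKM in every fibroblast library (adjusted p at most 9.66e-05 for the difference). Slc3a2, the heavy chain shared by amino acid exchangers, measured 64.2, 77.2, 15 and 17.6 FPKM and its partner Slc7a11, the cystine carrier, 4.65, 7.3, 0.113 and 0.0711 FPKM, and both neonatal values of each stood above both later ones. Without the neonatal PN1 library the fall of Slc7a11 was no longer called (log2 change -2.37 against -2.65 ± 0.66). Rab GTPases, which direct vesicles, had 13 rises and 10 falls of 37, and 8 and 16 with equal sums. Rab3a, known from regulated secretion, measured 7.26, 5.6, 46.2 and 38.4 FPKM and Rab8b 13.7, 13.9, 4.18 and 4.4 FPKM.

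Interferon and antigen presentation genes moved apart between the cell types. In cardiomyocytes 4 of 25 rose and 5 fell, in fibroblasts 23 rose, and for 19 the cardiomyocyte change was called lower. The class I heavy chain H2-K1 measured 80.2, 106, 26 and 27.4 FPKM in cardiomyocytes and 81.4, 82.5, 364 and 308 FPKM in fibroblasts, so it was lower in later cells of the first kind and higher in the second. The class II chaperone Cd74 measured 12.5, 12.2, 73.9 and 114 FPKM in cardiomyocytes and was called up, and it is a gene of macrophages and dendritic cells, whose markers also rose between the stages. Of 9 markers of mesothelium and epicardium 5 fell, with the factor Wt1 at 12.9, 12, 2.52 and 2.25 FPKM, and of 11 of smooth muscle and pericytes 5 rose and 3 fell.

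Of 96 genes left out of the tests in cell libraries, 34 had usable estimates in all 4 cardiomyocyte libraries, and their FPKM are given without a test. Eef1a1 stood at 3770 and 3935 FPKM in neonatal and 505 and 670 FPKM in later cells, opposite to its counterpart Eef1a2. The intermediate filament Vim stood at 640 and 672 FPKM and at 77.1 and 65.7 FPKM, and the matrix gene Postn at 286 and 270 FPKM and at 34.9 and 16 FPKM. Collagen Col3a1 stood at 176 and 154 FPKM and at 159 and 52.7 FPKM, Col4a1 at 438 and 529 FPKM and at 202 and 90.8 FPKM and Thbs1, a matrix glycoprotein, at 128 and 129 FPKM and at 3.22 and 8.14 FPKM. Dcn and Gsn, which like Col3a1 are on the fibroblast marker list, stood higher in later cells. Dcn was at 160 and 152 FPKM in neonatal and 403 and 698 FPKM in later libraries, and Gsn at 22.4 and 19.5 FPKM and at 742 and 1172 FPKM.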
